A study of Homo sapiens with 20 samples.

Results

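Messenger RNA of 10 integrin chains was measured in Jurkat T cells and in a CD47-deficient line made from them. The chains were chosen by gene name and comprise the α chains ITGA4, ITGA5, ITGA6, ITGAL, ITGAE and ITGAV and the β chains ITGB1, ITGB2, ITGB3 and ITGB7. All 10 are among the 60719 genes of the table, and all 10 passed the low-count filter that left 16327 genes for testing. WT cells are the Jurkat human leukemic T cell line. CD47- cells are JinB8, a somatic mutant of Jurkat selected for loss of CD47, so 1 mutant line stands for CD47 deficiency and any other difference that it acquired cannot be told apart from that of CD47. Each line gave 10 libraries, with 1 untreated library, taken at 1 h, and 9 treated ones. The treatments, each sampled after 1, 3 and 6 h, were immobilized anti-CD3 and anti-CD28 (CD3+CD28), the same antibodies with thrombospondin-1 at 1 μg/mL (CD3+CD28+TSP1), and TSP1 alone. Anti-CD28 was coated at 4 μg/mL. Cells of both lines were kept in serum-free medium. Each combination of line, treatment and time was sequenced once, and nothing in the sample descriptions says that libraries came from separate cultures, so p-values measure the spread between these libraries.

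Integrins are cell surface receptors made of 1 α and 1 β chain, and a chain reaches the surface only in such a pair. Pairs with β1 bind mainly extracellular matrix, α4β1 also binds VCAM-1 on endothelium, αLβ2 (LFA-1) binds the ICAM molecules of other cells, and αEβ7 holds T cells at epithelium through E-cadherin. TSP1 is a secreted matrix protein that is recognized by CD47 and also by integrins, among them α4β1, α6β1 and αVβ3. The comparisons below ask how much mRNA for each chain the line without CD47 holds, and whether the chains respond to activation, to TSP1 or over time.

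Libraries held between 16107921 and 31737616 counts. Levels are given as CPM, the count relative to a library size scaled by the TMM method, in which 3 counts, taken as the limit of detection, equal 0.0979 to 0.156 CPM. CD47 mRNA was 253 to 372 CPM in WT and 124 to 165 CPM in CD47- libraries, so the transcript is reduced in the mutant and still present. All 11 T cell markers checked were above the limit in every library. Of 5 platelet markers, 4 were at or under it in all libraries, and the sum of the 5 never passed 0.303 CPM. The B cell list summed to 35.6 to 56.0 CPM in WT and 5.86 to 13.7 CPM in CD47- libraries, and the fibroblast list to 1.89 to 7.14 and 7.70 to 12.3 CPM, both without overlap. Of the 5 fibroblast genes COL1A1 and PDGFRB were higher in CD47- libraries, whereas COL1A2, COL3A1 and DCN overlapped and reached their highest value in WT. The part of either list in the results was not tested. The CD47- library of CD3+CD28+TSP1 at 3 h was the shallowest and correlated least with the others of its line (mean r of 0.972 across genes), and results that change without it are given both ways. In bulk RNA, fewer cells that express a gene and less RNA per cell cannot be told apart.

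Between the lines, 7 of the 10 chains differed at an adjusted p under 0.05 in the edgeR quasi-likelihood test with Benjamini-Hochberg adjustment over all genes. ITGA5, ITGA6 and ITGB7 were higher in CD47- cells, and ITGA4, ITGAL, ITGAV and ITGB3 were lower. Of all genes tested, 40.4% passed the same threshold, 19.8% higher and 20.6% lower. The median log2 fold change of the 10 chains was −0.18, against −0.01 over all genes. For 4 chains, ITGA4, ITGA6, ITGAL and ITGB7, the highest library of the one line stayed below the lowest of the other, which held for 11.5% of all genes tested. The lines were therefore most clearly apart in the α4 and α6 chains of β1 integrins, in the αL chain of LFA-1 and in the weakly expressed β7 chain.

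**Figure D1:**
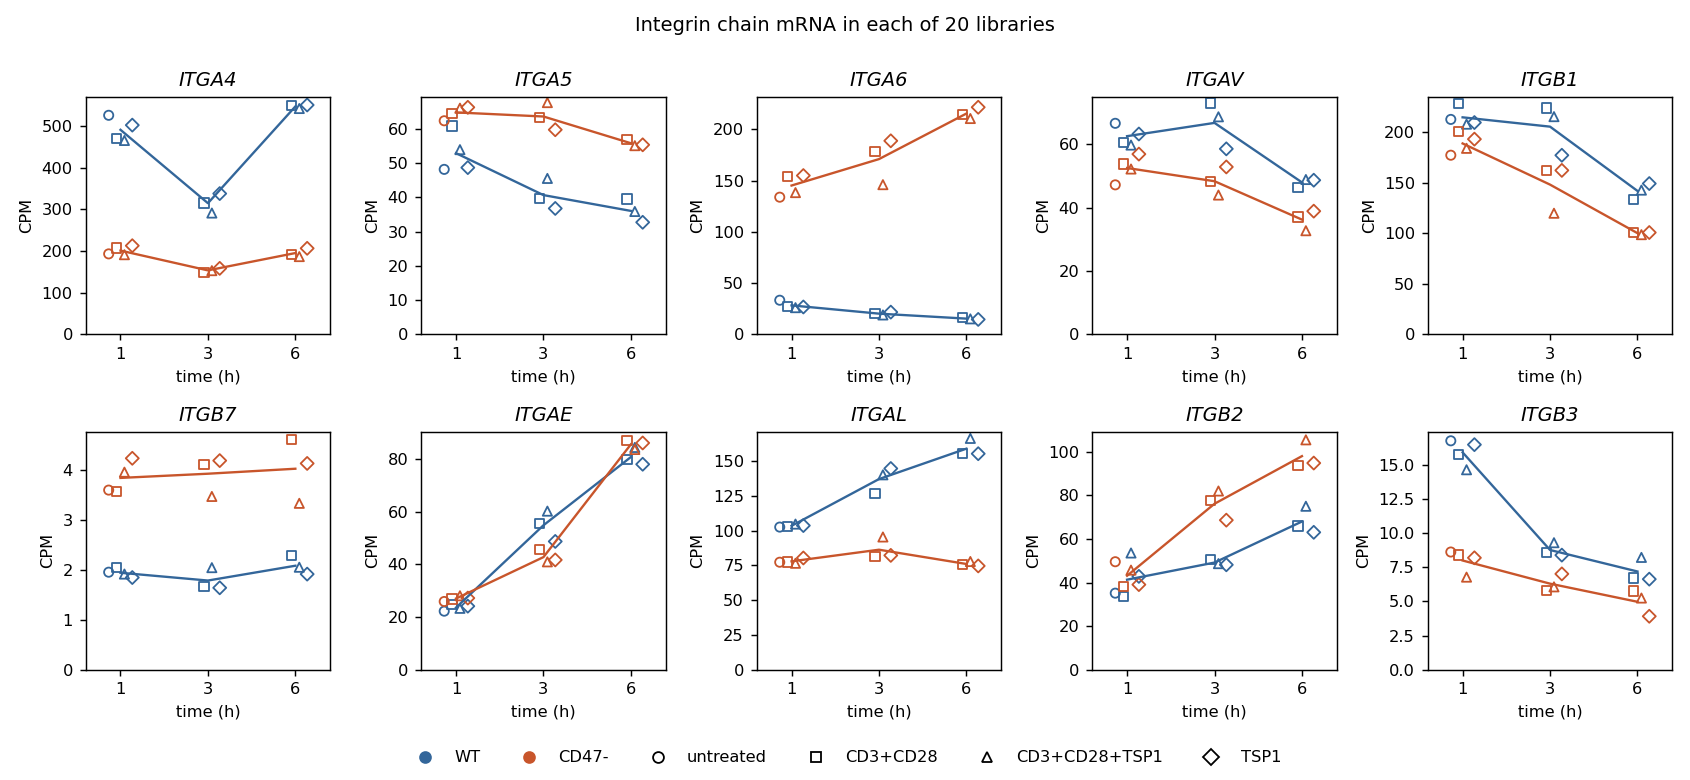
CPM of the 10 chains (vertical axes, linear from 0, separate scale for each gene) against time in hours, with 1 point per library, blue for WT and orange for CD47-, the symbol giving the treatment and the line joining the means at each time (n = 4 libraries at 1 h, 3 at 3 h and 3 at 6 h). ITGA4 was 291 to 550 CPM in WT and 149 to 213 CPM in CD47- cells, whereas ITGA6 was 14.6 to 33.3 CPM in WT and 134 to 222 CPM in CD47- cells.

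ITGA6 encodes α6, which with β1 forms a laminin receptor that also binds TSP1. It lies on the plus strand of chromosome 2 at chr2:172427354-172506459 (GRCh38). Among the 10 WT libraries its level ran from 14.6 to 33.3 CPM with a median of 20.9, and among the 10 CD47- libraries from 134 to 222 CPM with a median of 166. Every CD47- library was above every WT library. The means were 22.0 ± 6.14 (SD, n = 10) and 174 ± 33.1 CPM (SD, n = 10), a log2 fold change of 2.98 with a standard error of 0.15 (7.92-fold, adjusted p in edgeR = 5.01e-13). Compared at the same treatment and time, ITGA6 was higher in CD47- cells in 10 of 10 pairs, by 1.99 to 3.88 on the scale of log2 (CPM + 0.5).

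Nearly all ITGA6 counts fell on a pair of coding transcripts, ITGA6-201 and ITGA6-202, known as the α6A and α6B forms. They differ at the cytoplasmic end: ITGA6-201 holds an exon of 130 bases at chr2:172501772-172501901 that ITGA6-202 skips, so each form ends in its own coding sequence. Both ends are shown because the coding sequences of the forms differ there. In capitals are the 15 bases that encode the conserved membrane-proximal motif of integrin α chains, which starts at base 4 in both and is identical at 10 of the 15 positions. The first sequence spans chr2:172501772-172501876 and the second chr2:172504091-172504249, both on the plus strand of GRCh38.
ITGA6-201: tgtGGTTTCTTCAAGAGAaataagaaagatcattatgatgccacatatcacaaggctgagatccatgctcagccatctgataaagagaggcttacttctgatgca
ITGA6-202: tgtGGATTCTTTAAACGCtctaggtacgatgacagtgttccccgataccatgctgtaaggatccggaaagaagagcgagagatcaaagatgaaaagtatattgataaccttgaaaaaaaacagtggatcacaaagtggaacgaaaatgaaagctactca

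Both forms were higher in CD47- cells. ITGA6-201 averaged 9.28 ± 4.69 CPM in WT and 80.1 ± 21.2 CPM in CD47- libraries (SD, n = 10 each), a log2 fold change of 3.15 (adjusted p in edgeR = 3.04e-08 over 55450 isoforms, of which 15.1% passed). ITGA6-202 averaged 12.1 ± 2.96 and 88.1 ± 19.2 CPM (SD, n = 10 each), a log2 fold change of 2.90 (adjusted p in edgeR = 3.23e-11). As shares of the gene's counts, ITGA6-201 was 40.3% ± 12.4 in WT and 45.7% ± 6.91 in CD47- cells, and ITGA6-202 was 56.9% ± 12.8 and 50.8% ± 6.98 (SD, n = 10 each). The difference in share was 5.47 percentage points for ITGA6-201 and −6.11 points for ITGA6-202, and neither passed a two-sided permutation test with 100000 resamples adjusted over the 14 isoforms tested (adjusted p = 0.410 and 0.402). The shares of both lines overlapped, from 27.3 to 58.0% and from 35.8 to 55.4% for ITGA6-201. By time, the lines overlapped at 1 and 3 h and not at 6 h, where ITGA6-201 held 27.3 to 28.4% in WT and 48.0 to 50.7% in CD47- cells, and ITGA6-202 held 67.1 to 71.1% and 46.8 to 50.3% (3 libraries each). This split by time was made after the values were seen and was not tested.

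ITGA4 encodes α4, the chain of the VCAM-1 and fibronectin receptor α4β1 by which T cells also attach to TSP1. Its gene is 8.95 Mb further along chromosome 2, at chr2:181457202-181538940 on the plus strand. WT libraries ran from 291 to 550 CPM with a median of 486, and CD47- libraries from 149 to 213 CPM with a median of 192. All CD47- libraries were below all WT libraries, including the 3 WT libraries at 3 h, which were the lowest of that line. The means were 455 ± 102 and 185 ± 23.3 CPM (SD, n = 10 each), a log2 fold change of −1.30 with a standard error of 0.12 (2.46-fold lower, adjusted p in edgeR = 1.01e-08), and ITGA4 was lower in 10 of 10 pairs. The α4 and α6 chains, with the largest fold changes of the 10, thus differed in opposite directions.

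The sequence before the RefSeq start of each of these 2 genes is given because their mRNA moved furthest apart. RefSeq promoters (GRCh38.p14) were matched by symbol for 7 of the 10 chains, with 10 start sites. Each window is the 250 bases before the RefSeq start, at chr2:172427336-172427585 for ITGA6 and at chr2:181457136-181457385 for ITGA4, both on the plus strand. The gene positions given above, from GENCODE, begin inside these windows, so part of each window lies within the gene by that annotation. Matches to TGTGGT (a RUNX core), CCGGAAG (an ETS core), TGACTCA (AP-1) and CACGTG (E-box), on either strand, are in capitals. No 2 of these motifs overlapped here.
ITGA6: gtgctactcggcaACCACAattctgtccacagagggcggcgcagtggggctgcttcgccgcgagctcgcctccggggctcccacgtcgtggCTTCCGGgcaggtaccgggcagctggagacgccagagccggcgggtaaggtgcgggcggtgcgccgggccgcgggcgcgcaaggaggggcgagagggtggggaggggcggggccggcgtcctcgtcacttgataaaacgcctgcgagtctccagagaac
ITGA4: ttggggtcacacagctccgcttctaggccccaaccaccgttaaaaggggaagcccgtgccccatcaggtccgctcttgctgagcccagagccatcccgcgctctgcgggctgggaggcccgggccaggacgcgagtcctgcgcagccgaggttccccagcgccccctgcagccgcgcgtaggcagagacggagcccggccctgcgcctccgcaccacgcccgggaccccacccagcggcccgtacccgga
The ITGA6 window held 1 match to TGTGGT and 1 to CCGGAAG, and the ITGA4 window held none of the 4 motifs. RefSeq also lists an upstream start for ITGA6, whose window at chr2:172427086-172427335 held 1 match to CACGTG and none to the other 3. Over all 35116 promoters of the table, 11% of the 250-base windows held TGTGGT, 8.52% CCGGAAG, 4.2% TGACTCA and 6.34% CACGTG, and a match is letters found in a window and not a site of binding.

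ITGA5 encodes α5, the chain of the classical fibronectin receptor α5β1. It ran from 32.7 to 60.7 CPM in WT with a median of 42.6, and from 55.0 to 67.6 CPM in CD47- cells with a median of 62.8. The ranges overlapped only through the WT library of CD3+CD28 at 1 h. The log2 fold change was 0.48 with a standard error of 0.10 (adjusted p in edgeR = 0.000313), and it was higher in 10 of 10 pairs. ITGAV encodes αV, the partner of β3 in the vitronectin receptor. It ran from 46.4 to 73.0 CPM in WT and between 32.7 and 56.9 in CD47- cells, with medians of 60.2 and 47.7. The ranges overlapped, and ITGAV was lower in CD47- cells in 10 of 10 pairs, the log2 fold change being −0.36 ± 0.11 (SE, adjusted p in edgeR = 0.00923). With fewer libraries ITGAV did not pass, at −0.40 in the 6 activated pairs alone (adjusted p = 0.0680) and −0.26 in the 4 unactivated pairs alone (adjusted p = 0.298).

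ITGB1 encodes β1, the common partner of α4, α5, α6 and, in part, αV. Its libraries ran from 134 to 228 CPM in WT with a median of 208, and from 98.5 to 201 CPM in CD47- cells with a median of 162. The ranges overlapped widely, and the log2 fold change of −0.34 ± 0.15 (SE) did not pass the edgeR test (adjusted p = 0.0720). ITGB1 was nevertheless lower in 10 of 10 pairs, and it passed when the libraries were paired by treatment and time as a block (adjusted p = 0.000526) or when a time term was added (adjusted p = 3.56e-05). ITGB3 encodes β3, which with αV binds TSP1 and vitronectin. It was low, from 6.63 to 16.8 CPM in WT and between 3.92 and 8.62 in CD47- cells, with medians of 8.95 and 6.42. ITGB3 was lower in CD47- cells, at −0.76 ± 0.19 on the log2 scale (SE, adjusted p in edgeR = 0.00317) and in 10 of 10 pairs, and in the 4 unactivated pairs alone it was −0.77 and did not pass (adjusted p = 0.172).

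ITGAL and ITGB2 encode the αL and β2 chains of LFA-1, the adhesion receptor of the T cell synapse. ITGAL ran from 103 to 166 CPM in WT with a median of 133, and from 74.6 to 95.4 CPM in CD47- cells with a median of 77.7. The lines did not overlap, the log2 fold change was −0.70 ± 0.10 (SE, adjusted p in edgeR = 2.69e-06), and ITGAL was lower in 10 of 10 pairs. ITGB2 ran from 33.8 to 75.1 CPM in WT and between 38.2 and 106 in CD47- cells, with medians of 49.7 and 73.3. Its log2 fold change of 0.43 ± 0.19 (SE) did not pass (adjusted p in edgeR = 0.0828), with 8 of 10 pairs higher in CD47- cells. With the pairs as a block its adjusted p was 0.00250, and with a time term 0.00123. The antisense gene ITGB2-AS1, which overlaps ITGB2 by 8630 bases, averaged 16.1 CPM in WT and 13.1 in CD47- cells. The strand setting of the counting is not given in the sources used here, so reads from the overlap may be assigned to either gene.

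ITGAE and ITGB7 encode αE and β7, of which αEβ7 binds E-cadherin and α4β7 the gut addressin MAdCAM-1. ITGAE ran from 22.2 to 84.3 CPM in WT and between 25.9 and 86.9 in CD47- cells, the log2 fold change being −0.02 ± 0.31 (SE, adjusted p in edgeR = 0.959). Its interval of 2 standard errors, from −0.65 to 0.60, leaves room for a difference of either sign, and its spread includes the change with time. Compared at the same treatment and time, ITGAE was higher in CD47- cells in 4 of 4 pairs at 1 h (mean log2 difference 0.19 ± 0.061, SD), lower in 3 of 3 at 3 h (−0.35 ± 0.17) and higher in 2 of 3 at 6 h (0.084 ± 0.085). ITGAE overlaps HASPIN on the other strand by 2797 bases, and HASPIN averaged 65.4 CPM in WT and 59.0 in CD47- cells. ITGB7 was the scarcest chain in WT, with 37 to 63 counts per library. It ran from 1.64 to 2.28 CPM in WT with a median of 1.94, and from 3.34 to 4.62 CPM in CD47- cells with a median of 4.04. The lines did not overlap, the log2 fold change was 1.01 ± 0.10 (SE, adjusted p in edgeR = 1.63e-08), and ITGB7 was higher in 10 of 10 pairs. ITGB7 shares 3820 bases with ZNF740 on the other strand, which averaged 55.4 and 53.0 CPM in WT and CD47- cells, more than 10 times the level of ITGB7.

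**Figure D2:**
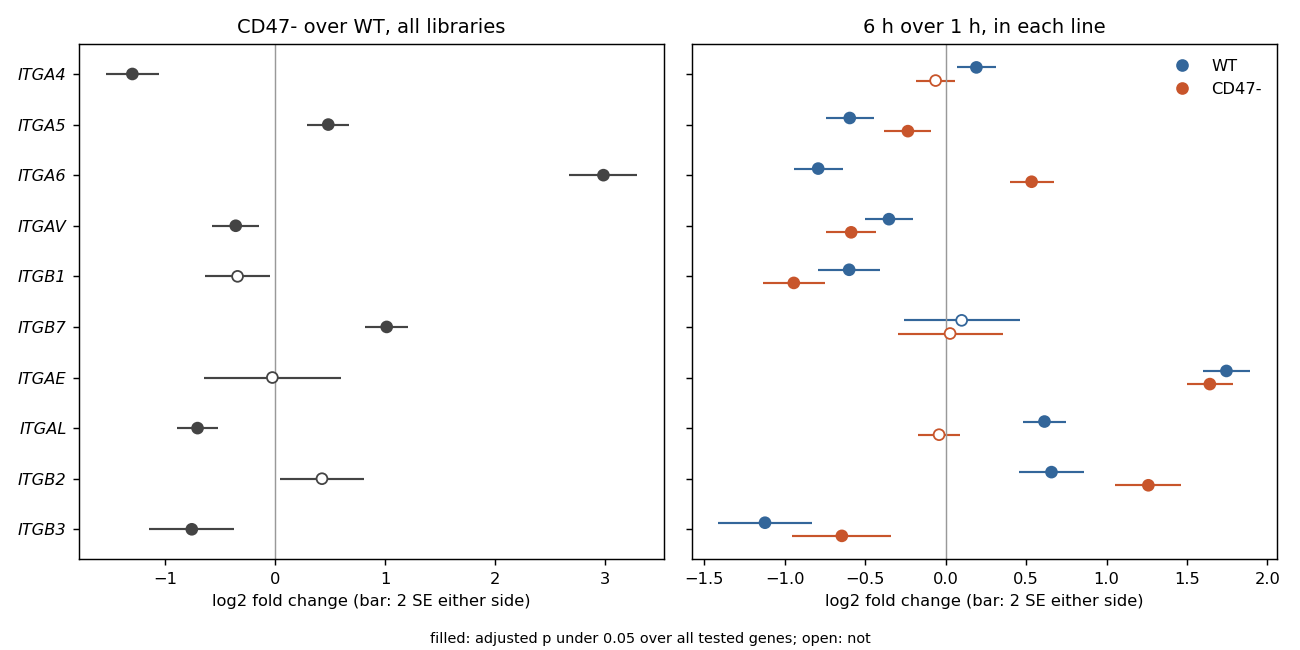
Log2 fold changes of the 10 chains on the horizontal axes, with bars of 2 standard errors to either side, CD47- over WT from all 20 libraries on the left and 6 h over 1 h in WT (blue) and CD47- cells (orange) on the right. Filled points passed an edgeR adjusted p of 0.05 over all genes. On the left ITGA6 lies at 2.98 and ITGA4 at −1.30, and on the right ITGA6 lies at −0.79 in WT and 0.53 in CD47- cells.

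To compare chains with each other, the CPM of each isoform was divided by its own length in kb and summed over the chain. Counts on short transcripts therefore weigh more on this scale. WT cells held most ITGA4, at 91.6 ± 20.3 CPM per kb (SD, n = 10), above ITGB1 at 50.2 ± 9.55 in 10 of 10 libraries. ITGAE, at 47.4 ± 19.95, was below ITGB1 in every WT library at 1 and 3 h and above it in every one at 6 h. Then came ITGAL at 31.98 ± 7.18, ITGB2 at 20.5 ± 5.63, ITGA5 at 16.2 ± 3.70 and ITGAV at 9.71 ± 1.56 CPM per kb. ITGA6 followed at 4.86 ± 1.56, ITGB3 at 2.12 ± 0.83 and ITGB7 at 1.08 ± 0.13 CPM per kb. The order of ITGB2 and ITGA5 changed with time in both lines. ITGB2 was below ITGA5 in every library at 1 h and above it in every library at 3 and 6 h, together 6 of 10 libraries of each line. In CD47- cells the highest 4 chains overlapped. ITGAE at 43.8 ± 18.7, ITGA4 at 41.5 ± 5.23, ITGA6 at 40.1 ± 4.68 and ITGB1 at 39.6 ± 10.8 CPM per kb each exceeded the next in only 5 or 6 of 10 libraries. The order of these 4 chains turned over with time. At 1 h every CD47- library held most ITGB1, then ITGA4, ITGA6 and ITGAE. At 6 h every one held most ITGAE, then ITGA6, ITGA4 and ITGB1, and at 3 h the order differed between libraries. ITGB2, ITGA5, ITGAL, ITGAV, ITGB7 and ITGB3 followed, at 27.7 to 1.19 CPM per kb. The place of ITGAE depends on the length used, since many of its counts fall on 2 short transcripts without a coding sequence, ITGAE-207 and ITGAE-202 (672 and 721 bases). With the length of each gene's most abundant transcript ITGAE moved from rank 3 to 5 in WT and from rank 1 to 7 in CD47- cells, where ITGB1 then came first at 40.1 CPM per kb, before ITGA6 at 30.6, ITGA4 at 27.3 and ITGB2 at 24.8.

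Set against each other on this scale, the ratio of ITGA4 to ITGA6 was 20.7 ± 9.06 in WT cells (SD, range 13.1 to 35.1) and 1.05 ± 0.20 in CD47- cells (range 0.764 to 1.33, n = 10 each), above 1 in 10 of 10 and in 5 of 10 libraries. It moved with time, from 14.9 ± 1.65 at 1 h to 33.7 ± 1.73 at 6 h in WT, while in CD47- cells it went from 1.26 ± 0.066 to 0.961 ± 0.031 (SD). Among the summed CPM per kb of ITGA4, ITGA5, ITGA6 and ITGAV, ITGA4 held 74.2% ± 6.54 in WT and 37.6% ± 3.45 in CD47- cells (SD). The share of ITGA6 was 4.01% ± 1.17 in WT and 36.5% ± 4.12 in CD47- cells, and ITGA5 held 13.6% ± 3.71 and 19.0% ± 1.68. ITGAL over ITGB2, the chains of LFA-1, was 1.59 ± 0.25 in WT and 0.741 ± 0.280 in CD47- cells (SD), above 1 in 10 of 10 WT and in 2 of 10 CD47- libraries. The sum for ITGAL includes ITGAL-220, annotated as a target of nonsense-mediated decay, with 37.5% of ITGAL counts in WT and 40.9% in CD47- cells. At 1, 3 and 6 h the ratio was 1.03, 0.637 and 0.454 in CD47- cells, and 1.57, 1.76 and 1.46 in WT. These ratios were chosen after their values were seen and are given without a test.

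**Figure D3:**
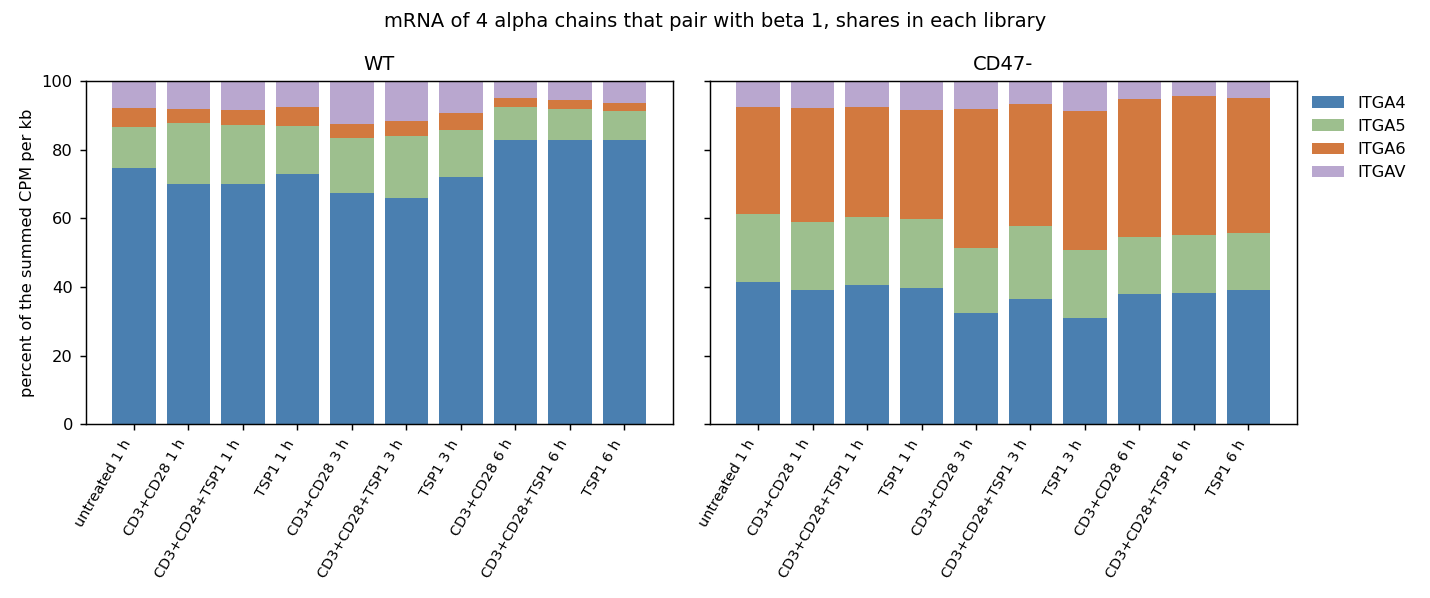
Shares of ITGA4, ITGA5, ITGA6 and ITGAV in their summed CPM per kb (vertical axis, percent, bars stacked to 100) in each library of WT (left) and CD47- cells (right), ordered by time and treatment. ITGA4 held 66.0 to 82.9% in the WT libraries and 30.9 to 41.5% in the CD47- libraries, and ITGA6 held 2.36 to 5.57% and 31.1 to 40.5%.

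Time after plating moved more chains than any treatment. Times are compared over the treatments, because the untreated cells were sampled at 1 h only, so a response to plating, medium or treatment cannot be told apart from time itself. From 1 to 6 h in WT cells 9 of the 10 chains passed the edgeR test, 4 higher and 5 lower, and over all genes 50.5% passed, 25.7% higher and 24.8% lower. Of the chains in CD47- cells 7 passed, 3 higher and 4 lower, against 53% of all genes, 26% higher and 27% lower. At 3 h against 1 h, 6 chains passed in WT (34.3% of all genes) and 5 in CD47- cells (38% of all genes). Both times of each line thus set the chains against a background in which at least 34.3% of all genes passed, and no test of the chains as a list was made.

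ITGAE rose most from 1 to 6 h in both lines, although by 3 h in CD47- cells ITGB2 had risen further, by 0.90 on the log2 scale against 0.64. In WT ITGAE went from 23.6 ± 1.06 CPM (SD, n = 4) at 1 h to 54.8 ± 5.78 at 3 h and 80.7 ± 3.28 at 6 h (n = 3 each), and in CD47- cells from 27.0 ± 0.90 to 42.7 ± 2.50 and 85.5 ± 1.75 CPM. The log2 changes to 6 h were 1.74 ± 0.07 (SE) in WT and 1.64 ± 0.07 in CD47- cells (adjusted p in edgeR = 1.18e-09 and 1.67e-09), and their difference of −0.10 ± 0.10 did not pass. The make-up of its counts moved as well. The coding ITGAE-201 went from 7.42% at 1 h to 31.9% at 6 h in WT, in CD47- cells from 17.8 to 39.6%, and the short ITGAE-207 from 47.7 to 23.2% in WT and 38.0 to 17.7% in CD47- cells. In both forms the lines did not overlap at 1 and 6 h and overlapped at 3 h, which was seen after the fact and not tested. ITGB1, ITGAV and ITGB3 fell in both lines. ITGB1 went from 214 ± 9.50 to 142 ± 7.72 CPM in WT, and in CD47- cells from 189 ± 10.4 to 99.98 ± 1.29 CPM (SD), with edgeR adjusted p of 0.000136 and 2.10e-06. ITGB3 went from 15.9 ± 0.94 to 7.19 ± 0.89 CPM in WT, and in CD47- cells from 7.998 ± 0.83 to 4.98 ± 0.95 CPM (SD), with edgeR adjusted p of 2.10e-05 and 0.00287. ITGB7 did not pass at any time, with log2 changes to 6 h of 0.10 ± 0.18 and 0.03 ± 0.16 (SE).

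For 4 chains the change from 1 to 6 h differed between the lines when tested as an interaction of line and time, which 16.6% of all genes passed. ITGA6 fell in WT cells, from 28.3 ± 3.38 CPM at 1 h to 20.2 ± 1.40 at 3 h and 15.4 ± 0.92 at 6 h, and rose in CD47- cells, from 145 ± 10.7 to 171 ± 22.2 and 215 ± 5.62 CPM (SD). The difference between the changes was 1.33 ± 0.10 on the log2 scale (SE, adjusted p in edgeR = 2.87e-06). In matched pairs ITGA6 was 5.08-fold higher in CD47- cells at 1 h, 8.23-fold at 3 h and 13.6-fold at 6 h. ITGAL rose in WT cells, from 103 ± 0.95 to 159 ± 6.38 CPM, and was 77.9 ± 1.67 CPM at 1 h and 76.0 ± 1.62 CPM at 6 h in CD47- cells (SD), a difference in change of −0.65 ± 0.09 (SE, adjusted p in edgeR = 0.000414). ITGB2, its partner, rose in both lines and further in CD47- cells, from 43.2 ± 5.46 to 98.1 ± 6.50 CPM against 41.4 ± 9.09 to 68.0 ± 6.24 CPM in WT (SD), a difference of 0.60 ± 0.14 (SE, adjusted p in edgeR = 0.0120). At 1 h the lines overlapped in ITGB2, and at 3 and 6 h every CD47- library was above every WT library of the same time. ITGA5 fell in both lines and less in CD47- cells, a difference of 0.36 ± 0.10 (SE, adjusted p in edgeR = 0.0304), which did not pass when any of 7 of the 20 libraries was left out (adjusted p up to 0.109). Without the shallow CD47- library of CD3+CD28+TSP1 at 3 h, 6 chains passed this test, ITGA4 (−0.26, adjusted p = 0.0167) and ITGB1 (−0.35, adjusted p = 0.0246) in addition.

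ITGA4 took a course of its own, with a dip at 3 h in both lines. In WT cells it went from 491 ± 28.4 CPM at 1 h to 315 ± 23.4 at 3 h and 547 ± 4.41 at 6 h, and in CD47- cells from 201 ± 10.5 to 154 ± 4.57 and 195 ± 10.2 CPM (SD). At 3 h every library was below every library of the same line at 1 h and 6 h. The log2 change from 1 to 3 h was −0.61 ± 0.06 (SE) in WT and −0.41 ± 0.06 in CD47- cells (adjusted p in edgeR = 7.67e-06 and 0.000228). The change from 1 to 6 h, 0.19 ± 0.06 (SE) in WT, passed narrowly (adjusted p in edgeR = 0.0181) and lost this when any of 5 libraries was left out.

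None of the 10 chains passed an adjusted p of 0.05 for activation or for TSP1 in edgeR, DESeq2 or limma voom, which does not show that they did not respond. CD3+CD28+TSP1 was compared with TSP1 alone at 3 matched times. In WT cells no chain passed, where 15 genes (0.0919% of all genes) did, and 1 chain had an unadjusted p under 0.05, as did 5% of all genes. That chain was ITGA5, at 0.20 ± 0.07 on the log2 scale (SE, adjusted p in edgeR = 0.814), higher with activation at 1, 3 and 6 h. In CD47- cells no chain passed and 0% of all genes did, and 2 chains had an unadjusted p under 0.05 (16.1% of all genes), ITGA6 at −0.20 ± 0.07 and ITGAV at −0.21 ± 0.08 (SE, adjusted p in edgeR = 0.283 for both). Both of these were lower with activation at all 3 times. CD3+CD28 against untreated cells rests on 1 untreated library a line, taken at 1 h, which is assumed to vary like the other groups. It gave 2 chains with an unadjusted p under 0.05 in WT (8.32% of all genes) and 0 in CD47- cells (4.02%), with 0% of all genes past the adjusted threshold in either line.

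TSP1 added to activated cells (CD3+CD28+TSP1 against CD3+CD28) also passed for 0 chains and 0% of all genes in either line. At an unadjusted p under 0.05, reached by 2.24% of all genes in WT and 10.8% in CD47- cells, stood 1 chain in WT, ITGB2 at 0.26 ± 0.10 (SE, adjusted p in edgeR = 1), and 1 in CD47- cells, ITGA6 at −0.15 ± 0.07 (SE, adjusted p in edgeR = 0.459). The ITGB2 difference rested on 1 h, where it was 0.66 on the log2 scale, against −0.06 at 3 h and 0.18 at 6 h. For ITGA4 the change with TSP1 was −0.05 ± 0.06 in WT and −0.04 ± 0.06 in CD47- cells (SE), with intervals of 2 standard errors from −0.17 to 0.07 and from −0.17 to 0.08. Compared with the single untreated library of each line, TSP1 alone passed for 0 chains and 0% of all genes, with 1 chain in WT (7.14% of all genes) and 3 in CD47- cells (8.61%) at an unadjusted p under 0.05. The difference between the lines in the response to activation, or to TSP1 in activated cells, did not pass for any chain, nor for any of all genes (0%) in edgeR. At an unadjusted p under 0.05 stood 1 chain for activation, ITGAV at −0.26 ± 0.11 (SE, adjusted p in edgeR = 0.705), and 0 for TSP1, against 6.42% and 2.41% of all genes. The log2 differences of the 10 chains with TSP1 in activated cells spanned −0.08 to 0.26 in WT and −0.20 to 0.17 in CD47- cells.

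**Figure D4:**
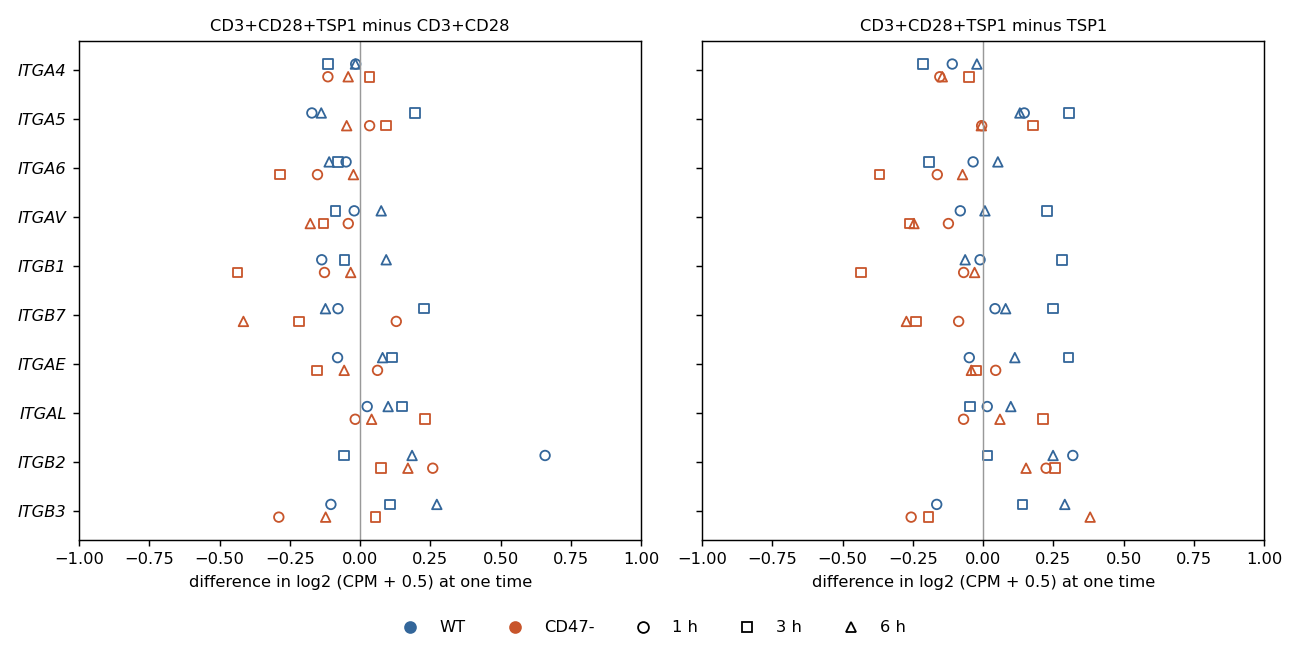
Differences in log2 (CPM + 0.5) at matched times between CD3+CD28+TSP1 and CD3+CD28 (left) and between CD3+CD28+TSP1 and TSP1 alone (right), 1 point per chain, line (blue WT, orange CD47-) and time (circle 1 h, square 3 h, triangle 6 h). Most points lie within 0.5 of 0, and the exception on the left is ITGB2 in WT at 1 h, at 0.66.

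Isoform shares could be tested for 9 chains and 14 isoforms with at least 10% of a chain's counts, and ITGB7 was left out because it had under 50 counts in some libraries. A single isoform passed in the unpaired test. ITGA4-203, the main coding transcript, held 91.2% ± 1.52 of ITGA4 counts in WT and 87.9% ± 1.49 in CD47- cells (SD, n = 10 each), lower in 10 of 10 pairs (permutation test with 100000 resamples, adjusted p = 0.00112). The difference of −3.26 percentage points became −8.91 points when counts were divided by transcript length before the share was taken (permutation adjusted p = 0.00140). ITGA5-201 was 5.62 percentage points higher in CD47- cells (permutation adjusted p = 0.105) and in 10 of 10 pairs, and it passed in the exact sign-flip test over pairs (adjusted p = 0.0137). ITGAV-201, ITGB3-201 and ITGB1-201 held 80.1 to 98.2% of their gene as means of a line, with the lowest library at 73.1% (ITGB1-201 in CD47- cells), and ITGB2-225 varied from 18.2 to 84.4% among WT libraries alone.

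Of 16 further integrin genes 9 were tested, with 4 higher and 0 lower in CD47- cells, where 40.4% of all genes passed, 19.8% higher and 20.6% lower. Their median log2 fold change was 0.44. ITGA1, the α1 chain of a collagen receptor with β1, went from 9.47 ± 1.02 to 70.6 ± 8.60 CPM (SD, n = 10 each), a log2 fold change of 2.90 (adjusted p in edgeR = 1.93e-17). ITGA2, which forms another collagen receptor, was higher by 1.03, ITGA7 of a laminin receptor by 1.06 and ITGA3 of a further laminin and TSP1 receptor by 0.45 on the log2 scale (adjusted p in edgeR = 7.69e-06, 0.000285 and 0.00424). Of the 29 activators and adaptors 26 were tested, 8 higher and 5 lower (13 of 26, against 40.4% of all genes). The 4 with the smallest p were higher in CD47- cells: RASSF5, which links RAP1 to LFA-1, by 0.75, TLN1, the talin that opens integrins by binding β tails, by 0.69, RASGRP2, an exchange factor of RAP1, by 1.69, and the focal adhesion protein ZYX by 1.84 (adjusted p in edgeR = 2.38e-09, 1.94e-08, 5.52e-07 and 0.000114). ITGA1, ITGA6, ITGA4 and ITGA7, and LAMB1 among the ligands below, were already known from a table of the study when the lists were written.

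Of 22 ligands and counter-receptors 11 were tested, 2 higher and 4 lower in CD47- cells (6 of 11, against 40.4% of all genes). LAMB1, a laminin β chain and so a possible ligand of α6β1, went from 49.1 ± 13.5 to 9.13 ± 2.19 CPM (SD, n = 10 each), a log2 fold change of −2.43 (adjusted p in edgeR = 1.11e-10). ICAM3, a ligand of LFA-1 on resting leukocytes, was lower, at −0.64 on the log2 scale (adjusted p in edgeR = 7.21e-06), and ICAM1, its inducible ligand, higher, at 0.63 (adjusted p in edgeR = 5.73e-05). The laminin α chain LAMA2 was lower, at −2.29 (adjusted p in edgeR = 0.000905). LAMA2 was scarce and the lines overlapped, with 0.294 to 6.23 CPM in WT (1.95 ± 2.18, SD) and 0.202 to 0.616 CPM in CD47- cells (0.395 ± 0.134). THBS1, the gene of TSP1, ran from 0.168 to 11.8 CPM in WT and between 0.163 and 9.69 in CD47- cells and did not pass (adjusted p in edgeR = 0.129). Of 8 other TSP1 receptors 6 were tested and 3 passed, against the same 40.4%. LRP1 was higher, at 0.94 on the log2 scale, and CD47 and CALR were lower, at −1.10 and −0.71 (adjusted p in edgeR = 0.000278, 1.05e-10 and 0.0127). JinB8 was selected for loss of CD47, so the place of CD47 in this count is not independent of the choice of line. LRP5 at 0.21 did not pass (adjusted p in edgeR = 0.266).

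Patterns across libraries were compared by Pearson's r of log2 CPM over the 20 libraries, centred within each line so that the difference between the lines does not enter, among 13150 genes. The libraries share time points, and r is a description. Among the chains themselves ITGB1 and ITGAV were most alike (r = 0.929), then ITGAE and ITGB2 (r = 0.849) and ITGA5 and ITGB3 (r = 0.811). Among all genes, ITGAE was most like TRBC2 (r = 0.987), a constant segment of the T cell receptor β chain. ITGB1 was most like NDC80 (r = 0.983), a kinetochore gene, ITGAV like ZNF430 (r = 0.971), ITGA5 like NXF1 (r = 0.958) and ITGA4 like SELPLG (r = 0.957), the selectin ligand of leukocytes. The 3 genes most like ITGA6 were GPT2, SLC38A1 and PSAT1 (r = 0.942, 0.928 and 0.925), which act in amino acid metabolism and transport. ITGB2 was most like ATP13A2 and FERMT3 (r = 0.974 and 0.972), the latter being kindlin-3, an integrin activator of blood cells. ITGAL was most like LINC02405 (r = 0.927) and ITGB3 like ZNF367 (r = 0.940). For ITGB7 no gene passed r = 0.687.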

How the data were processed

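RNA was sequenced from 20 libraries of 2 lines, 10 a line. The authors used Cutadapt 1.18 for trimming, STAR 2.4.2a (two-pass) for alignment to GRCh38, and RSEM 1.3.3 with GENCODE version 36 for counting. The deposited values are expected counts of genes and isoforms, not scaled by depth or length. Reads of genes that overlap or resemble each other are divided by estimate. A further 2 columns of each file belong to no sample of the series and were not used. The batch correction that the authors applied downstream was not repeated, since the batch is not given in the sources used here.

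Counts were rounded and tested with edgeR 4.0.16 in R 4.3.3. Genes were kept by filterByExpr (minimum count 10, minimum total 15), libraries scaled by TMM, and quasi-likelihood p-values adjusted over 16327 genes by the Benjamini-Hochberg method. Lines were compared over all 20 libraries. Time and treatment came from 1 model that gives every treatment of a line its own coefficient and each line its own terms for 3 and 6 h, and differences between the lines in a response from its interactions. Isoform shares were compared by permutation with 100000 resamples (scipy). Libraries of the same treatment and time deviated together from their line's mean in all 10 pairs (r across genes of 0.126 to 0.602), so a fit with these pairs as a block stood as an alternative. The partner of the same treatment was the closest match in 2 of the 10 pairs, and otherwise another treatment at the same time was closer. Other alternatives were DESeq2 1.42.0, limma 3.58.1 (voom with quantile normalization), upper-quartile factors, other filters, a time term, a common time effect, the activated pairs, the unactivated pairs, 1 line alone and each library left out. Positions came from GENCODE version 44 by gene identifier and sequences from GRCh38 and RefSeq (read with samtools). The fits were tested on simulated data.

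The 10 chains, the lists of other integrin genes, activators, ligands and TSP1 receptors, and the tests were chosen with earlier results of these data known. By rule all 10 chains are named, and from each other list up to 4 genes with the smallest p between the lines. THBS1 was named in addition, after its values were seen. For pattern likeness the rule takes the 3 most correlated genes of each chain, of which the text gives the first or more.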

Additional observations from a re-analysis of the deposited data

Results flagged for a closer look

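Among 20 sets of 10 libraries (10 chains in 2 lines), 1 held a library far from the others by Dixon's test at 95%, where chance alone flags about 1 set in 20. It was ITGAL in the CD47- library of CD3+CD28+TSP1 at 3 h, at 95.4 CPM, with the other CD47- libraries between 74.6 and 82.2 CPM. This is also the shallowest library. Without it the log2 fold change of ITGAL between the lines stayed within −0.74 to −0.66, the range over all libraries left out in turn.

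The change from 1 to 6 h differed between the lines by the interaction test for 4 chains. The difference, CD47- minus WT on the log2 scale, was 1.33 for ITGA6, −0.65 for ITGAL, 0.60 for ITGB2 and 0.36 for ITGA5. Of these, ITGA6 changed in opposite directions, lower at 6 h in all 3 WT series and higher in all 3 CD47- series with the same treatment at 1 and 6 h.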

How the results depend on the processing

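No count of chains that passed, for lines, time or treatments, moved by more than 1.5 times under any of the alternatives run. With the libraries paired by treatment and time as a replicate block, and likewise with a time term, 9 chains passed between the lines in place of 7, ITGB1 (−0.37 in both) and ITGB2 (0.38 and 0.37) in addition. With the 6 activated pairs alone 6 passed, and with the 4 unactivated pairs alone 5. The share of all genes that passed in these alternatives is not given here. The 40.4% of all genes belongs to the fit without a block or time term, so these counts have no background beside them. Leaving out each library in turn gave 7 to 9 chains between the lines, 8 to 9 and 6 to 7 at 6 h in WT and CD47- cells, and 3 to 6 in the interaction with time. ITGA4 at 6 h in WT (0.18, adjusted p = 0.158), ITGA5 at 6 h in CD47- cells (−0.24, adjusted p = 0.0639) and ITGA5 in the interaction (0.37, adjusted p = 0.0962) did not pass with no low-count filter. Of the isoform shares, 2 passed with a sign-flip replicate block over pairs (ITGA5-201 in addition), and 1 to 2 passed with a library left out. When isoform counts were tested in edgeR, which tests their level and not their share, 8 isoforms passed, against 15.1% of all isoforms.

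Values that changed sign were mostly near 0 and had not passed. For 6 h in CD47- cells, limma voom gave 0.069 for ITGA4, 0.025 for ITGAL and −0.048 for ITGB7. Between the lines ITGAE was 0.015 with upper-quartile factors, 0.080 in the unactivated pairs and −0.15 to 0.088 with a library left out. A time effect forced to be shared by both lines gave 0.070 for ITGA4, 0.29 for ITGAL and −0.082 for ITGA6, which had passed in opposite directions in the separate fits. With a library left out, ITGAL at 6 h in CD47- cells ran from −0.10 to 0.0032, ITGB7 from −0.11 to 0.14, the interactions of ITGAE from −0.15 to 0.010 and of ITGB7 from −0.21 to 0.043, and the share of ITGB2-225 from −4.34 to 5.96 points. Where a cause is not named, the cause was not tested. Depth limits ITGB7 most, with 37 counts in its lowest library, and 1 library per condition leaves treatments to be judged over 3 times.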
